A study of Rattus norvegicus with 9 samples.

Results

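Bone morphogenetic protein (BMP) signalling was followed through 9 genes of the deposited table of 34267 genes, chosen by name: the ligands Bmp2, Bmp4 and Bmp6, the secreted antagonists Grem1 and Nog, the intracellular inhibitor Smad6 and the target genes Id1, Id2 and Id3. The choice was made with earlier results of these data known. Each symbol matched a single row of the table, and all 9 passed the filter of at least 1 FPKM in at least 3 libraries, as did 13059 genes in all. The libraries came from wild-type rat (Rattus norvegicus) cartilage progenitor cells grown in primary culture from condylar cartilage, the cartilage of the jaw joint. Passage 9 cells (P9) served as the study's model of replicative senescence, passage 3 cells under flow fluid shear stress (FFSS) as its model of mechanically driven degeneration, and untreated passage 3 cells (P3) as the control, with 3 libraries each. The design asks which mechanism is common to the models. The strain, age and sex of the animals and the strength and length of the shear are not given in the sources used here. Whether the replicates are different animals, cultures or aliquots is likewise not stated, so the p-values reflect only the spread between these libraries, which may be technical.

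BMPs are secreted dimers of the TGF-beta superfamily that bring type I and type II receptor kinases together on the cell surface. The receptors phosphorylate Smad1, Smad5 and Smad9, which join Smad4 and enter the nucleus, where Id genes and Smad6 are among the best known targets. Gremlin and noggin bind BMPs outside the cell and keep them from their receptors, and Smad6 damps the signal inside it. Id proteins have a helix-loop-helix but no DNA-binding region, so they hold E proteins and other partners off DNA and in many lineages delay differentiation. In skeletal tissue the pathway guides cartilage formation and its passage to bone.

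Libraries held 13264930 to 15323790 fragments assigned to genes. FPKM are fragments divided by gene length and by a size factor of the library, and 1 fragment on a gene of 1 kilobase was worth 0.0619 to 0.0733 FPKM. FFSS replicate 1 stood apart from the other shear libraries: across genes the FFSS libraries correlated with each other at r = 0.915 to 0.969 and with P3 libraries at 0.890 to 0.945, and replicate 1 gave the lowest value within FFSS. Cartilage markers summed to 785 to 815 FPKM in P9, 458 to 600.5 FPKM in FFSS and 946 to 1066 FPKM in P3 over 8 listed genes, all found. Most of this was Acan and Col11a1, which differed in opposite directions between P9 and P3. Acan was at 499 to 609, 29.3 to 48.2 and 122 to 135 FPKM in P9, FFSS and P3, and Col11a1 at 194 to 307, 405 to 523 and 809 to 918 FPKM. Sox9 (9.81 to 15.3 FPKM) and Hapln1 (6.53 to 8.73 FPKM) were highest in FFSS, where the sum was lowest. Col2a1 reached at most 1.06 FPKM and Col9a1 at most 0.407 FPKM in any library. Markers of mesenchymal progenitors were abundant, at 1147 to 1577, 1851 to 2145 and 1282 to 1423 FPKM in the same order of groups (7 of 7 found). Of the markers of other cells, those of leukocytes summed to 5.14 to 5.66 FPKM in P9, 42.2 to 106 FPKM in FFSS and 9.60 to 11.1 FPKM in P3 over the 7 found of 8 listed, mostly from Cd14, while Ptprc, which defines the class, stayed at or under 0.03998 FPKM. The macrophage genes Lyz2 and Csf1r were higher in FFSS replicates 2 and 3 as well, and Cd68 was higher in all FFSS libraries. Others of the list were not: Adgre1 was at 0 FPKM in every FFSS library. Tyrobp was at 0 FPKM in FFSS replicates 1 and 3 and at 0.797 FPKM in replicate 2. Lyz2 was at 0.0562, 5.36 and 2.94 FPKM in FFSS, 0 FPKM in all P9 libraries and at most 0.305 FPKM in P3. Csf1r was at 0.0840, 3.17 and 2.08 FPKM in FFSS and at most 0.218 FPKM in P9 and 0.187 FPKM in P3, and Cd68 was at 2.11 to 2.5998 FPKM in FFSS and at most 0.848 FPKM in P9 and 0.873 FPKM in P3. Lyz2 and Csf1r were thus lowest among the FFSS libraries in replicate 1, as Id1 was. Id1 was still above every P3 library there, and Lyz2 and Csf1r were not. Glial markers, mostly S100b, reached 65.0 to 89.9 FPKM in FFSS, with Sox10 at most 0.0444 FPKM. Skeletal muscle markers (7 of 7 found) summed to 39.4 to 46.7 FPKM in P9, 8.93 to 39.0 FPKM in FFSS and 8.44 to 20.7 FPKM in P3. Acta1 made up most of this in P9, at 35.1 to 42.5 FPKM, against at most 1.48 FPKM in FFSS and 2.45 to 13.8 FPKM in P3, and Tnnt3 most of it in FFSS, at 8.29 to 37.0 FPKM. Of the muscle genes that define the class, Myod1 reached at most 0.604 FPKM, Myog 0.0948 FPKM and Ckm 0.0504 FPKM. Epithelial markers summed to 1.32 to 2.13 FPKM in P9, 0.207 to 1.14 FPKM in FFSS and 0.243 to 0.558 FPKM in P3, with Krt5 at 0 throughout. Their part in the results was not tested. In bulk RNA of this kind, fewer cells of a type and less RNA per cell cannot be told apart.

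The ligand with the clearest difference between the models was Bmp4, which was lower in P9 than in FFSS, while limma called 0 of the 3 ligands in either model against P3, as did voom on the recovered fragments. Of all tested genes limma called 9.83% in P9 and 21.8% in FFSS. At an unadjusted p under 0.05, 2 ligands were lower in P9 and 1 was higher in FFSS by either tool. The share of all genes under that unadjusted threshold is not given here, so these counts cannot be set against it. Bmp4, a ligand with broad roles in mesenchyme and skeleton (chromosome 15, 20776054 to 20822740, minus strand, Rnor_6.0), stood at 11.9, 11.3 and 25.02 FPKM in P9, at 32.8, 64.0 and 56.2 FPKM in FFSS and at 29.4, 25.3 and 32.4 FPKM in P3. All P9 libraries lay below all P3 libraries and all FFSS libraries above them, so that P3 sat between the models without overlap. The log2 fold change of FPKM + 1 between P9 and FFSS was -1.65 (SE 0.32, adjusted p = 0.00558, limma with Benjamini-Hochberg adjustment over all 13059 genes, as for every adjusted p here), and the call held whichever library was left out. Neither side passed against P3: the log2 fold change was -0.90 in P9 (adjusted p = 0.128) and 0.75 in FFSS (adjusted p = 0.127). Each of these would pass without 1 library, the P9 value without P9 replicate 3 (-1.25, adjusted p = 0.0322) and the FFSS value without FFSS replicate 1 (1.03, adjusted p = 0.0267).

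Bmp2, which is known for driving bone formation (chromosome 3, 126335863 to 126346318, plus strand), was the scarcest of the 9 genes in every group. It stood at 1.95, 1.70 and 2.58 FPKM in P9, at 2.24, 4.58 and 4.23 FPKM in FFSS and at 3.31, 5.11 and 3.27 FPKM in P3, from 83 to 225 fragments per library. P9 lay below P3 in every library, and FFSS replicate 1 fell among the P9 values. The log2 fold change was -0.66 in P9 against P3 (SE 0.24, adjusted p = 0.140) and -0.08 in FFSS against P3 (adjusted p = 0.834). Leaving out FFSS replicate 1, which narrowed the shared spread, brought P9 past the threshold against P3 (-0.66, adjusted p = 0.0376) and against FFSS (-0.82, adjusted p = 0.0105).

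Bmp6, a ligand of hypertrophic cartilage and of iron control (chromosome 17, 26955142 to 27112820, minus strand), stood at 3.57, 6.81 and 9.97 FPKM in P9, at 64.7, 4.78 and 26.8 FPKM in FFSS and at 14.9, 15.6 and 13.01 FPKM in P3. Again every P9 library was below every P3 library. The shear libraries spread over both sides of P3, with replicate 1 the highest of all 9 and replicate 2 among the P9 values. No comparison was called: the log2 fold change was -1.08 in P9 against P3 (SE 0.74, adjusted p = 0.440), 0.51 in FFSS against P3 (adjusted p = 0.652) and -1.59 in P9 against FFSS (adjusted p = 0.131). The shear result hung on single libraries, at 1.47 without FFSS replicate 2 (adjusted p = 0.0495) and -0.28 without FFSS replicate 1 (adjusted p = 0.736). Without FFSS replicate 2, P9 also passed against FFSS (-2.55, adjusted p = 0.00390). With P9 and P3 as the only groups in the fit, Bmp6 was called lower in P9 (adjusted p = 0.0468).

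**Figure D1:**
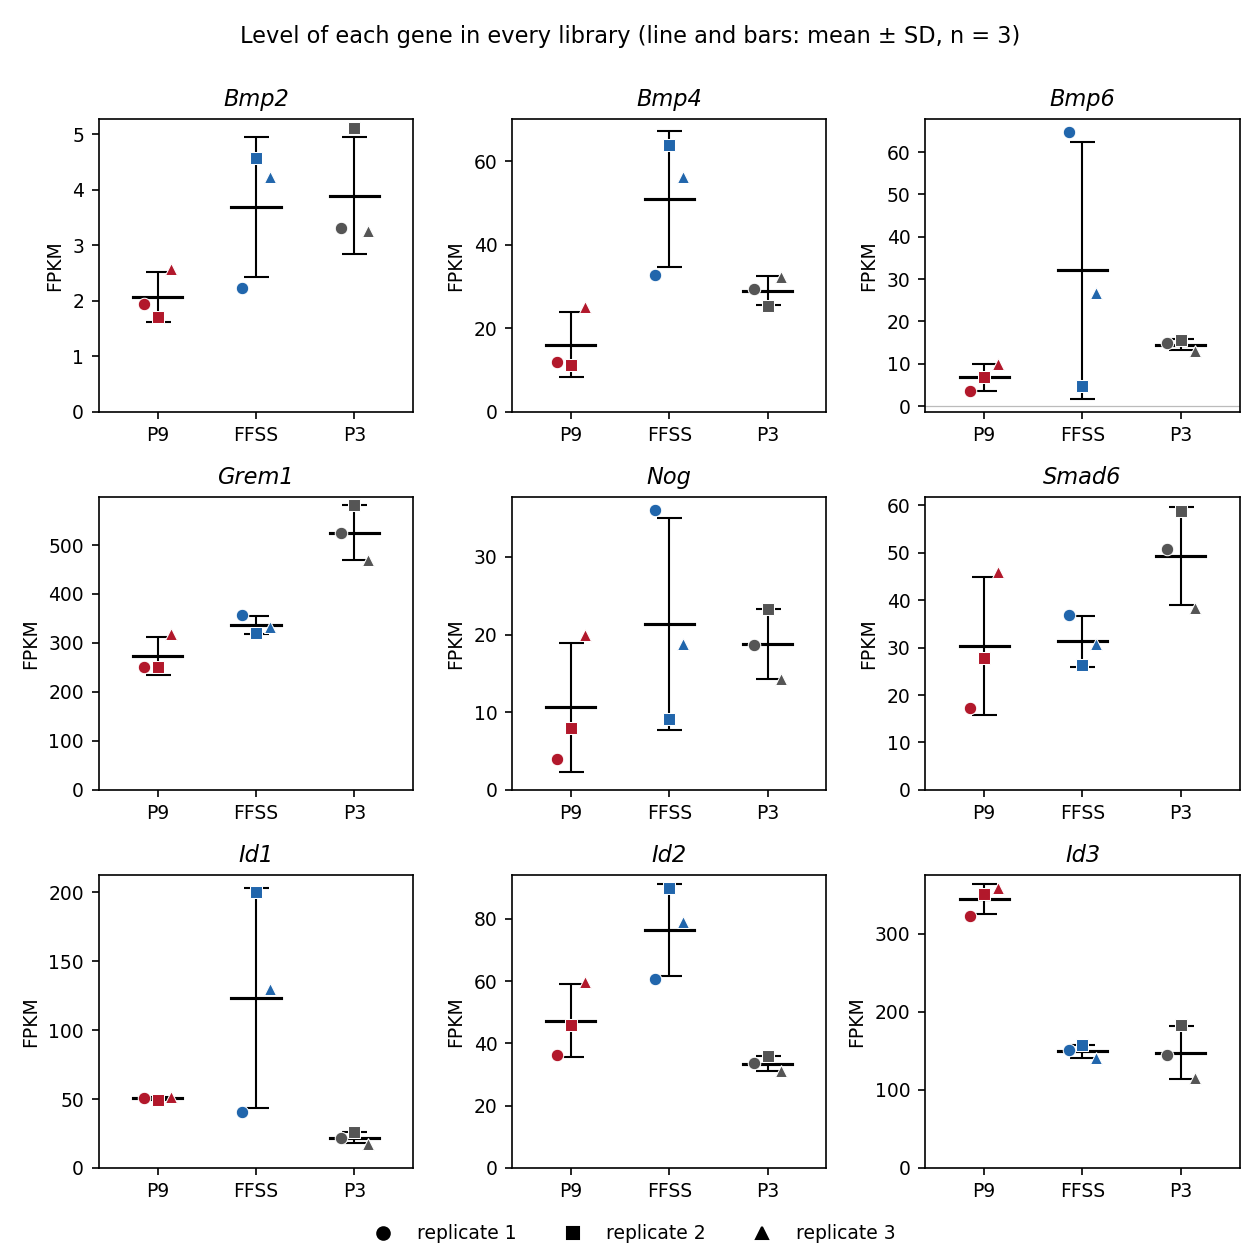
FPKM (linear axis) of each of the 9 genes in every library, by group (P9, FFSS, P3), with marker shapes for replicates 1 to 3 and the line and bars giving the mean ± SD (n = 3). Id3 stands at 323 to 359 FPKM in P9 and at most 183 FPKM elsewhere, Grem1 is highest in P3, and the shear libraries of Bmp6 and Id1 spread most widely.

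Grem1 was the member that fell in both models. This gene for gremlin 1, a DAN-family antagonist that binds BMP2 and BMP4 (chromosome 3, 105203309 to 105214989, minus strand), was at 250.3, 251 and 318 FPKM in P9, at 357, 319.65 and 333 FPKM in FFSS and at 524, 581 and 469.6 FPKM in P3. The P3 libraries were the highest, the P9 libraries the lowest and the groups did not overlap. It fell in P9 (log2 fold change -0.94, SE 0.14, adjusted p = 0.00309) and in FFSS (-0.64, SE 0.14, adjusted p = 0.0126) against the same 3 P3 libraries. The P9 call held whichever library was left out, but the FFSS call ended without P3 replicate 1 (adjusted p = 0.0538) or P3 replicate 2 (adjusted p = 0.0572). The difference between the models was not called (-0.31, interval -0.61 to -0.00171, adjusted p = 0.113, where the interval is the unadjusted 95% one).

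Nog, which encodes noggin, an antagonist needed for joint formation (chromosome 10, 76811759 to 76813386, minus strand), was far scarcer than Grem1. It stood at 3.96, 8.02 and 19.9 FPKM in P9, at 36.1, 9.15 and 18.8 FPKM in FFSS and at 18.6, 23.3 and 14.3 FPKM in P3. The groups overlapped in every comparison, and the log2 fold changes were -0.99 (SE 0.56, adjusted p = 0.345) in P9 against P3, 0.01 (adjusted p = 0.995) in FFSS against P3 and -0.997 (adjusted p = 0.205) in P9 against FFSS. The P9 value carried an interval of -2.27 to 0.29, which holds a large fall and a small rise alike.

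Because FPKM are scaled by length, the ligands and antagonists were also added up in each library, as a description. Bmp2, Bmp4 and Bmp6 together came to 17.4, 19.8 and 37.6 FPKM in P9, to 99.8, 73.4 and 87.3 FPKM in FFSS and to 47.6, 46.0 and 48.7 FPKM in P3. Grem1 and Nog together came to 254, 259 and 338 FPKM in P9, to 393, 329 and 351 FPKM in FFSS and to 543, 605 and 484 FPKM in P3. The ratio of these 2 antagonists to these 3 ligands was thus 14.6, 13.1 and 8.99 in P9, 3.94, 4.48 and 4.03 in FFSS and 11.4, 13.1 and 9.95 in P3. Other antagonists are not in it, and they differed in direction. Nbl1 was at 157 to 308 FPKM in FFSS against 130 to 147 FPKM in P3, without a call. Fst was also higher in FFSS than in P3, and Chrd was lower. The ratio therefore does not describe BMP antagonists as a whole. P9 overlapped P3 in this ratio, with the sums of both kinds below those of P3 in every library, while every shear library was below both. The shear ratio was close in the 3 FFSS libraries although Bmp6 and Nog were highest in replicate 1 and Bmp4 in replicate 2.

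**Figure D2:**
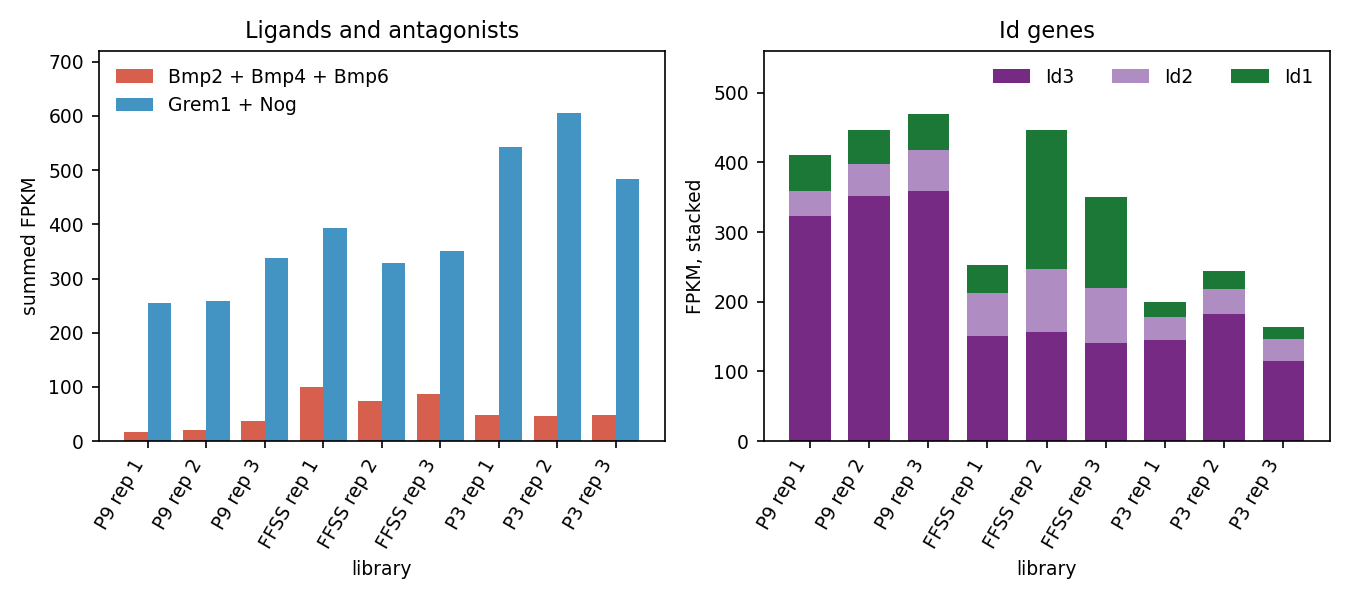
Left, summed FPKM of the ligands (Bmp2, Bmp4, Bmp6) and of the antagonists (Grem1, Nog) in each library. Right, FPKM of Id3, Id2 and Id1 stacked in each library. Grem1 and Nog together exceed the ligands shown in every library. Id1 makes up 44.8% and 37.2% of the sum of Id1, Id2 and Id3 in FFSS replicates 2 and 3, against 10.5 to 12.4% in the P9 and P3 libraries.

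Smad6 is an inhibitory Smad that BMP itself induces (chromosome 8, 68898296 to 68966108, minus strand). It was at 17.3, 27.8 and 46.0 FPKM in P9, at 36.9, 26.2 and 30.8 FPKM in FFSS and at 50.9, 58.8 and 38.3 FPKM in P3. All shear libraries lay below all P3 libraries, whereas P9 replicate 3 fell within the P3 values. No comparison was called (log2 fold change -0.77, SE 0.31, adjusted p = 0.182 in P9 and -0.63, SE 0.31, adjusted p = 0.176 in FFSS, both against P3). Without P9 replicate 3 the P9 value was -1.11 and passed (adjusted p = 0.0442).

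Id3 rose in P9, Id1 and Id2 rose in FFSS, and none of the 3 fell in any comparison with P3. Their promoters are shown because these are the classical read-out genes of the pathway. RefSeq (build GRCr8) gave a promoter for 7 of the 9 genes, all but Bmp2 and Smad6. The 250 bases before the annotated start follow in 5′ to 3′ order of the gene, with CCAAT and TATAA, and their complements ATTGG and TTATA, in capitals.
Id1, chr3:161671314-161671563, plus strand: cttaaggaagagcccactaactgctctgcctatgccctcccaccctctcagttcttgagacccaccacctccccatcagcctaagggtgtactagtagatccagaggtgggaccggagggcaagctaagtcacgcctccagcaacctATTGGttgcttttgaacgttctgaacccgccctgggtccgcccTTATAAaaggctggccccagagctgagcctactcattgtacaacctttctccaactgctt
Id2, chr6:47470996-47471245, minus strand: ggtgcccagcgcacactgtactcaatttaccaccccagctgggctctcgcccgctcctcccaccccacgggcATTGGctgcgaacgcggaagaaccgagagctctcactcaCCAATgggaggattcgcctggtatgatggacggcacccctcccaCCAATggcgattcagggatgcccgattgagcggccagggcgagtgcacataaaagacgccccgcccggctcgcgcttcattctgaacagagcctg
Id3, chr5:153656041-153656290, plus strand: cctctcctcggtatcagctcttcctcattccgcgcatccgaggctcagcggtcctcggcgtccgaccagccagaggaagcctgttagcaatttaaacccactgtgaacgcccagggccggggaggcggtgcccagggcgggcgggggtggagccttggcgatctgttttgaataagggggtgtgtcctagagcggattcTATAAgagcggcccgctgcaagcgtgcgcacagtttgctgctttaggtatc
Id1 held 1 CCAAT, 103 bases before the start, and overlapping matches to TATAA on opposite strands at 60 and 59 bases. Id2 held 3 CCAAT matches, at 178, 139 and 95 bases, and no TATAA, and Id3 held a single TATAA at 51 bases and no CCAAT. Over 33465 rat promoters of the same length, on both strands, 34.0% held CCAAT and 24.0% TATAA, so either is common, and both were chosen after the sequences were seen. GGCGCC and CAGAC, letters bound by Smad complexes in other studies, occurred in none of the Id windows, against 8.70% and 42.9% of all promoters. They occurred in the windows of Grem1 (GGCGCC), Nog (both) and Bmp4 (CAGAC). At such shares, absence from 3 windows is no result by itself, and bases further upstream than 250 were not searched. A match is a description of letters only.

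Id3 (chromosome 5, 154489590 to 154491223, plus strand, Rnor_6.0) was at 323, 351 and 359 FPKM in P9, at 151.2, 157 and 140.5 FPKM in FFSS and at 145, 183 and 115 FPKM in P3. The P9 libraries were far above all others, and FFSS lay within the range of P3. P9 averaged 344 ± 19.0 FPKM and P3 147.5 ± 33.9 FPKM (SD, n = 3 each), 2.33 times as much, with a log2 fold change of 1.24 (SE 0.16, adjusted p = 0.00191). In FFSS against P3 the log2 fold change was 0.04, with an interval of -0.32 to 0.40 (adjusted p = 0.868). The models differed, with P9 above FFSS by 1.20 (SE 0.16, adjusted p = 0.000910). Both of the Id3 calls held whichever library was left out.

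Id1 (chromosome 3, 148215540 to 148216718, plus strand) was at 50.8, 49.1 and 51.3 FPKM in P9, at 40.3, 200.1 and 130.1 FPKM in FFSS and at 22.0, 25.7 and 17.7 FPKM in P3. Every library of either model was above every P3 library. P9 was tight and FFSS was not: FFSS replicate 1 was lower than all P9 libraries, and replicates 2 and 3 were the highest of all 9. Id1 rose in FFSS, to 123.5 ± 80.1 FPKM against 21.8 ± 4.03 FPKM in P3 (log2 fold change 2.19, SE 0.47, adjusted p = 0.0137). That call ended without FFSS replicate 3 (2.01, adjusted p = 0.0544) or P3 replicate 3 (2.05, adjusted p = 0.0510), and without FFSS replicate 1 the change was 2.85 (adjusted p = 5.58e-05). In P9 against P3 the log2 fold change was 1.19 (SE 0.47, adjusted p = 0.170), which did not pass with the spread shared by all 9 libraries. It passed where that spread left out FFSS replicate 1 (adjusted p = 0.00309) or all FFSS libraries (adjusted p = 0.00191), with the same fold change. P9 against FFSS was -1.001 (adjusted p = 0.139). Leaving out FFSS replicate 1 brought it to -1.66, past the threshold (adjusted p = 0.000365).

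Id2 (chromosome 6, 44348501 to 44363915, minus strand) was at 36.3, 45.9 and 59.6 FPKM in P9, at 60.7, 89.8 and 78.9 FPKM in FFSS and at 33.6, 35.8 and 31.1 FPKM in P3. The order of the groups was FFSS, P9, P3, without overlap between neighbours. Id2 rose in FFSS (log2 fold change 1.15, SE 0.20, adjusted p = 0.00600), and this call held whichever library was left out. In P9 against P3 the change was 0.46 (interval 0.01 to 0.90, adjusted p = 0.202). Id2 was lower in P9 than in FFSS (-0.69, SE 0.20, adjusted p = 0.0271), but that call ended without P9 replicate 1 (adjusted p = 0.0793), P9 replicate 2 (0.0743), FFSS replicate 2 (0.0793) or FFSS replicate 3 (0.0836), and with P9 and FFSS as the only groups in the fit (0.0746).

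Together Id1, Id2 and Id3 came to 410, 446 and 470 FPKM in P9, to 252, 447 and 350 FPKM in FFSS and to 200.2, 244 and 164 FPKM in P3. Id4, which is not in this sum, averaged 49.4 FPKM in P9, 35.0 FPKM in FFSS and 35.4 FPKM in P3. It was not called with all 9 libraries, but passed in P9 against FFSS without FFSS replicate 1 (0.87, adjusted p = 0.0131). All 6 libraries of the models had a higher sum of Id1, Id2 and Id3 than any P3 library. The shares of the 3 genes differed between FFSS and the other groups. Id3 made up 78.7, 78.7 and 76.4% of the sum in P9, 59.97, 35.1 and 40.2% in FFSS and 72.3, 74.8 and 70.3% in P3. Id1 made up 16.0, 44.8 and 37.2% in FFSS, and 10.5 to 12.4% in P9 and P3. These shares are a description without a test.

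**Figure D3:**
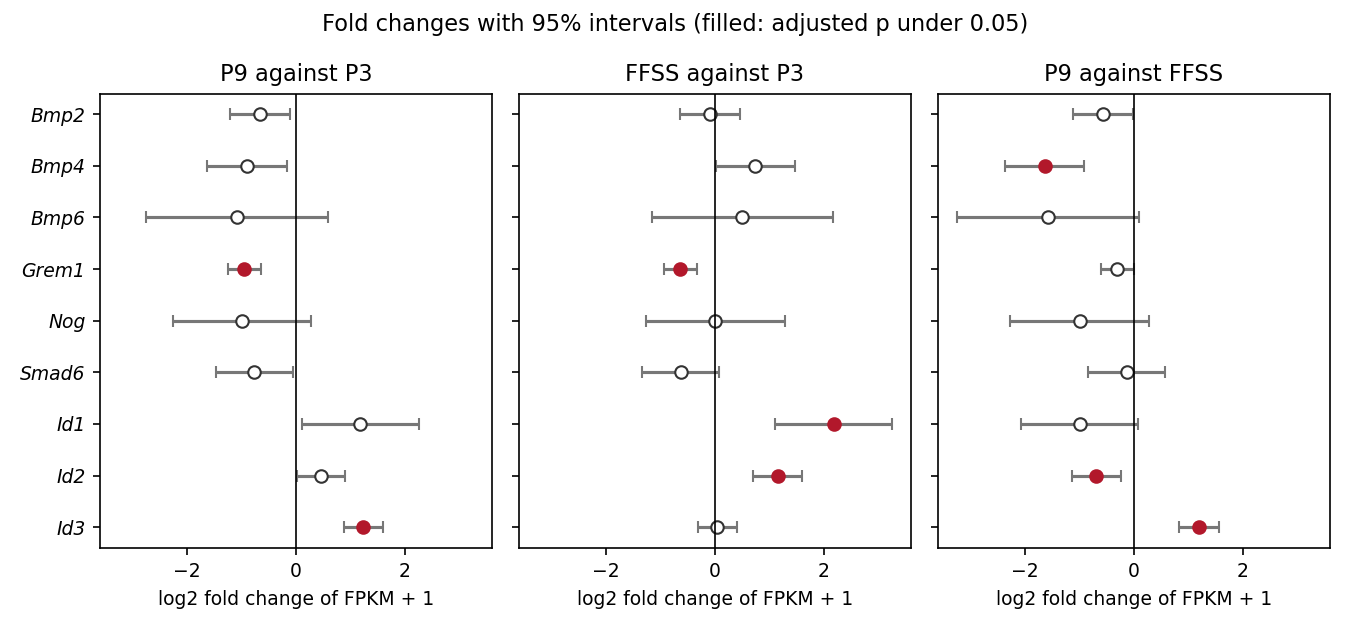
Log2 fold change of FPKM + 1 for the 9 genes in P9 against P3, FFSS against P3 and P9 against FFSS, from limma, with 95% intervals (unadjusted); filled points have an adjusted p under 0.05. Filled points are Grem1 and Id3 in the first panel, Grem1, Id1 and Id2 in the second, and Bmp4, Id2 and Id3 in the third.

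In P9 against P3, 1 of the 9 members was called higher (Id3) and 1 lower (Grem1), beside 9.83% of all tested genes called, 5.39% higher and 4.44% lower. The libraries of the groups did not overlap for 3 higher members (Id1, Id2, Id3) and 4 lower ones (Bmp2, Bmp4, Bmp6, Grem1), beside 20.9% of all tested genes higher and 19.1% lower without overlap. The median log2 fold change of the members was -0.77 in P9 against P3, 0.04 in FFSS against P3 and -0.69 in P9 against FFSS, beside -0.00262, -0.0109 and 0.00291 over all tested genes. In FFSS against P3, 2 members were higher (Id1, Id2) and 1 lower (Grem1), beside 21.8% of all tested genes called, 11.4% higher and 10.4% lower. Between the models, 1 member was higher in P9 (Id3) and 2 lower (Bmp4, Id2), which at 33.3% is near the 31.4% of all tested genes called there (16.1% higher, 15.3% lower). Without FFSS replicate 1 these shares of all tested genes were 17.3%, 39.0% and 45.7% in the same order of comparisons.

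The 9 genes also moved with particular libraries. P9 replicate 3 was the highest P9 library for all 9, a position it held for 3966 of all 13059 tested genes (30.4%). FFSS replicate 3 lay between replicates 1 and 2 for 8 of the 9, all but Id3, as it did for 7594 of all tested genes (58.2%). Replicate 1 was the highest shear library for Bmp6, Grem1, Nog and Smad6 and the lowest for Bmp2, Bmp4, Id1 and Id2.

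By level, the P9 order was Id3, Grem1, Id1, Id2, Smad6, Bmp4, Nog, Bmp6 and Bmp2. Libraries of neighbours in that order overlapped from Id1 down to Bmp6, and Id3, Grem1 and Bmp2 stood clear. The FFSS order was Grem1, Id3, Id1, Id2, Bmp4, Bmp6, Smad6, Nog and Bmp2, with only Grem1 and Bmp2 clear of their neighbours. The P3 order was Grem1, Id3, Smad6, Id2, Bmp4, Id1, Nog, Bmp6 and Bmp2, in which Grem1, Id3, Smad6 and Bmp2 were clear of their neighbours. Id3 thus stood above Grem1 in P9 and below it in FFSS and P3, in every library.

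For the member with the largest called change in each comparison, the genes of most similar pattern were found by the root mean square difference of centred log2(FPKM + 1) over the 9 libraries. For Id3 they were a row without a symbol (0.102), Tmem30b (0.114), a subunit of phospholipid flippases, and Ajuba (0.137), a LIM protein of cell junctions. For Id1 they were Ier3 (0.215), Errfi1 (0.226), a feedback inhibitor of the EGF receptor, and Abhd6 (0.262). For Bmp4 they were Vasn (0.224), a TGF-beta binding protein, the row of the Mir27b precursor (0.232) and Yjefn3 (0.238). Ier3, an immediate early gene, was at 149, 158 and 151 FPKM in P9, at 123.5, 450.0 and 274 FPKM in FFSS and at 73.5, 83.4 and 56.7 FPKM in P3. It had the low FFSS replicate 1 and the tight P9 group of Id1.

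A wider list of 64 genes of the pathway, in 6 groups, was examined beside the members. All 64 were in the table and 44 passed the filter. In P9 against P3, 5 were higher and 6 lower, 25% of those tested. In FFSS against P3, 8 were higher and 9 lower (38.6%), and in P9 against FFSS 10 were higher and 14 lower (54.5%). These counts include Gdf5, which passed the filter through FFSS alone and so had to differ. Over the other 43 genes the counts were 5 higher and 6 lower (25.6%), 7 higher and 9 lower (37.2%) and 10 higher and 13 lower (53.5%). Hey1 and Dlx3 remain among these 43, though each met the filter only with the group where it was high (P9 and P3). The background in the same order was 9.83%, 21.8% and 31.4%, and the median log2 fold change of the tested list was -0.10 in each comparison. Of these calls, 5 of 11, 7 of 17 and 17 of 24 held whichever library was left out. The list was chosen with earlier results of these data known, so shares above the background lend no support.

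Of 12 other ligands, 3 were tested. Gdf5, a marker of forming joints, was at 0 FPKM in all P9 libraries, at 2.29, 1.43 and 1.31 FPKM in FFSS and at 0.178, 0.0487 and 0 FPKM in P3. It was present in shear libraries at a low level and at or under a few fragments elsewhere. No test of it is given, for the reason above. Bmp3, a ligand known for opposing other BMPs in bone, averaged 9.91 FPKM in P9, 3.66 FPKM in FFSS and 6.39 FPKM in P3. It was higher in P9 than in FFSS (1.29, adjusted p = 0.00578) whichever library was left out. All P9 libraries were above and all FFSS libraries below P3, without a call (0.56, adjusted p = 0.235 in P9 and -0.74, adjusted p = 0.0697 in FFSS). Both passed without FFSS replicate 1 (0.56, adjusted p = 0.0453 and -1.03, adjusted p = 0.00286). Gdf6 was called lower in P9 than in P3 (adjusted p = 0.0304, up to 0.121 with a library left out). Bmp7, Bmp10 and Gdf2 were at 0 in every library.

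Of 9 tested receptors and co-receptors, 2 were called in FFSS against P3 (22.2%), near the 21.8% of all tested genes. In P9 against FFSS 3 were called (33.3%), near 31.4%. In P9 against P3, 1 was called (11.1%), near the 9.83% of all tested genes. This was Eng, which encodes the co-receptor endoglin, with 23.3, 28.3 and 35.7 FPKM in P9, 73.0, 120.8 and 99.2 FPKM in FFSS and 60.5, 62.9 and 53.6 FPKM in P3. It was lower in P9 and higher in FFSS than in P3 (log2 fold changes -1.01, adjusted p = 0.0149 and 0.69, adjusted p = 0.0416), and lower in P9 than in FFSS (-1.70, adjusted p = 0.000524). The difference between the models held whichever library was left out, whereas the calls against P3 ended in some fits (highest adjusted p = 0.0644 and 0.128). Eng is also an endothelial gene: the endothelial markers Cdh5, Tie1, Emcn and Sox17 were at 0 in every library, and the 8 found of 9 summed to at most 0.735, 3.50 and 1.83 FPKM in P9, FFSS and P3. Most of the FFSS sum was Erg, at 0.947, 2.97 and 1.60 FPKM. It was at 0.0611, 0.273 and 0.593 FPKM in P9 and at 0.633, 0.876 and 0.508 FPKM in P3. The source of the Eng transcripts was not tested. The type I receptor Bmpr1a was at 27.0 ± 5.74 FPKM in P9, 49.6 ± 12.98 FPKM in FFSS and 29.0 ± 1.43 FPKM in P3, higher in FFSS than in P3 (0.72, adjusted p = 0.0360), which 6 left-out libraries ended (highest adjusted p = 0.111). The type I receptors Bmpr1b and Acvr1 and the type II receptor Bmpr2 were not called in any comparison with all 9 libraries, at 4.08, 19.9 and 39.3 FPKM on average in P9, 5.79, 22.9 and 34.1 FPKM in FFSS and 4.42, 20.4 and 39.6 FPKM in P3. Bmpr1b passed in P9 against FFSS without P9 replicate 1 (-0.53, adjusted p = 0.0459).

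Among 8 tested Smads and regulators, limma and voom each called 0 in P9 against P3, beside 9.83% and 9.92% of all tested genes. At an unadjusted p under 0.05, 2 were higher there, a count without the share of all genes beside it. Smad1, Smad5 and Smad4, which carry the signal, were not called in any comparison with all 9 libraries, and Smad1 came nearest, at 25.9, 22.0 and 19.6 FPKM in P9 against 14.2, 17.6 and 15.5 FPKM in P3 (0.48, adjusted p = 0.0557). It passed without FFSS replicate 1 (adjusted p = 0.0381) or FFSS replicate 2 (adjusted p = 0.0496). Smad9 never exceeded 0.0464 FPKM. In FFSS against P3, 2 of the 8 were called (25%), near the 21.8% of all tested genes. The inhibitory Smad7 rose in FFSS, to 23.6, 64.4 and 54.7 FPKM against 15.8, 20.3 and 14.2 FPKM in P3 (1.35, adjusted p = 0.0337). That call ended when any of 6 libraries was left out (highest adjusted p = 0.113). Tob1, an inhibitor of BMP-activated Smads, rose in FFSS (36.9 FPKM against 19.7 FPKM in P3, 0.85, adjusted p = 0.00739) whichever library was left out.

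Of 12 tested antagonists and extracellular modulators, 2 rose (Bmper, Crim1) and 1 fell (Chrd) in P9 against P3 (25%, beside 9.83% of all tested genes). In FFSS against P3, 2 rose (Fst, Twsg1) and 4 fell, among them Chrd, Crim1 and Tll1 (50%, beside 21.8% of all tested genes). With a library left out, the adjusted p of Crim1 reached 0.147 in P9 and 0.110 in FFSS, and that of Twsg1 0.0700, past the threshold. Chrd, which encodes the antagonist chordin, was at 3.16, 3.39 and 4.41 FPKM in P9, at 10.9, 7.25 and 8.01 FPKM in FFSS and at 14.6, 12.01 and 16.0 FPKM in P3. Like Grem1 it was lowest in P9 and highest in P3 with no overlap. Chrd fell in P9 (-1.71, adjusted p = 0.000700), and in FFSS (-0.65, adjusted p = 0.0321) with a call that 6 left-out libraries ended (highest adjusted p = 0.113). Bmper, an extracellular BMP regulator, rose in P9, to 14.5, 12.7 and 12.2 FPKM against 2.18, 2.41 and 1.31 FPKM in P3 (2.27, adjusted p = 0.000361). Fst, which encodes the activin and BMP binder follistatin, rose in FFSS, to 43.1, 102.1 and 87.5 FPKM against 11.0, 12.6 and 13.04 FPKM in P3 (2.49, adjusted p = 0.00100).

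All 9 other BMP target genes were tested, and in P9 against P3 3 rose (Msx1, Msx2, Hey1) and 3 fell (Dlx3, Runx2, Sp7). That is 66.7%, beside 9.83% of all tested genes. The share includes Hey1 and Dlx3, which met the filter only with the group where each was high, so it overstates the excess. The calls of Msx2 and Runx2 ended with some libraries left out (highest adjusted p = 0.165 and 0.114). Msx1, a homeobox gene of mesenchymal progenitors, rose in P9 to 13.3, 19.3 and 20.9 FPKM, against 5.72, 5.90 and 6.43 FPKM in P3 (1.40, adjusted p = 0.00362). Hey1, a target that Notch shares, was at 3.36, 3.003 and 3.29 FPKM in P9, against 0.352, 1.004 and 0.938 FPKM in P3 (1.28, adjusted p = 0.00500). Outside P9 only P3 replicate 2 reached 1 FPKM, so Hey1 met the filter through P9 and its calls lend no support. The osteoblast factor Sp7 went the other way, to 0.361, 0.404 and 2.78 FPKM in P9 and 1.07, 3.00 and 4.64 FPKM in FFSS, against 18.0, 17.2 and 14.2 FPKM in P3. It fell in P9 (-3.17, adjusted p = 0.00299) and in FFSS (-2.27, adjusted p = 0.00973), and both calls held whichever library was left out. Dlx3 was lower in both models as well (-1.06, adjusted p = 0.0326 in P9, which 5 left-out libraries ended, and -1.31, adjusted p = 0.00929 in FFSS). Outside P3 only P9 replicate 3 reached 1 FPKM, so Dlx3 met the filter through P3 and its calls lend no support either.

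In FFSS, 0 of these 9 targets were called higher by limma or voom, also 0 at an unadjusted p under 0.05. Of all tested genes limma called 11.4% higher, so 0 among 9 is no result by itself. Called lower were 5, beside 10.4% of all tested genes: Dlx3, Dlx5, Hey1, Atoh8 and Sp7. The share of all genes at the unadjusted threshold is not given here. Dlx5, a homeobox gene of bone formation, was at 7.52 FPKM on average in FFSS and 13.9 FPKM in P3 (-0.81, adjusted p = 0.00973). The calls of Hey1 and Atoh8 ended in some fits with a library left out (highest adjusted p = 0.147 and 0.121). Hey1 was at 0, 0.292 and 0 FPKM in FFSS, from 0 to 4 fragments, against 5 to 13 fragments in P3. As above, the filter favoured a difference for Hey1 and Dlx3, so their calls among the 5 lend no support. Id1 and Id2 were higher in the same libraries in which these 5 targets were lower. Of the E proteins that Id proteins bind, Tcf4 was at 6.54, 8.74 and 8.66 FPKM in P9, at 17.6, 38.4 and 31.0 FPKM in FFSS and at 16.0, 14.7 and 15.7 FPKM in P3. It was lower in P9 than in FFSS (-1.68, adjusted p = 0.00143) and higher in FFSS than in P3 (0.80, adjusted p = 0.0487, a call that 8 left-out libraries ended). In P9 against P3 Tcf4 passed without FFSS replicate 1 (-0.88, adjusted p = 0.00300) or FFSS replicate 2 (adjusted p = 0.0247). Tcf3 and Tcf12 were not called with all 9 libraries, but without FFSS replicate 1 Tcf3 passed in FFSS against P3 (-1.05, adjusted p = 0.00762) and in P9 against FFSS (0.68, adjusted p = 0.0383).

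**Figure D4:**
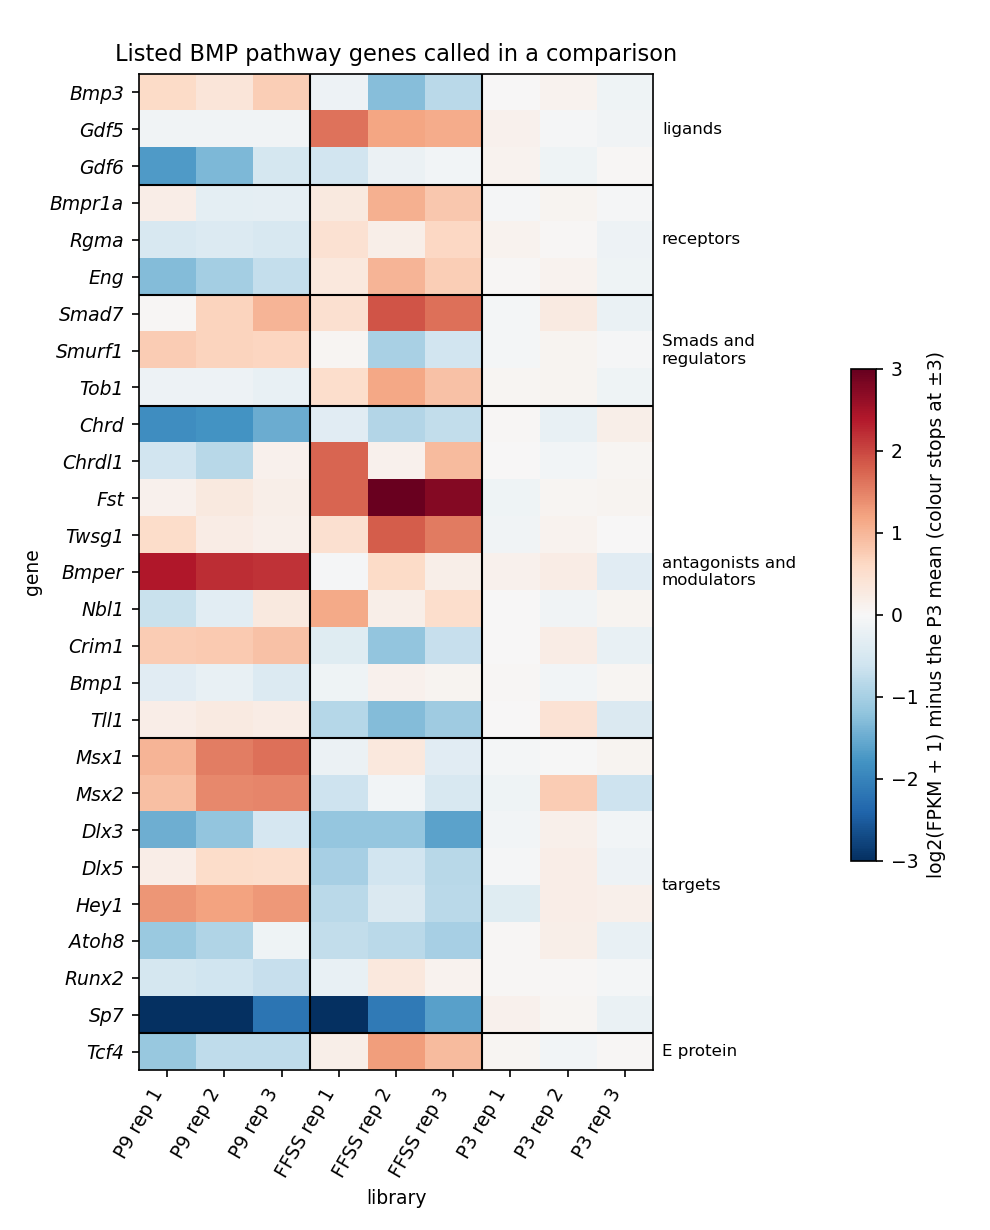
Log2(FPKM + 1) minus the P3 mean in every library for 27 of the listed pathway genes called in at least 1 comparison, ordered by role, with red above and blue below the P3 mean and colours that stop at 3 on either side. Bmper, Msx1 and Hey1 are red in P9, Fst is red in FFSS, and Sp7 is blue in both models.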

How the data were processed

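Poly-A RNA of 9 libraries was measured, 3 each of P9, FFSS and P3 cells. The submitters' processing notes name HISAT2 2.0.5, featureCounts 1.5.0-p3 and Rnor_6.0; their settings and the strandedness are not given in the sources used here, so reads of overlapping antisense genes may be counted together. The authors deposited FPKM, whose values times gene length came out as whole multiples of 1 step per library for 100% of values (tolerance 0.01), which gave the fragments per gene. The steps equal a median-of-ratios scaling. With 0 fragments, a gene of 1 kilobase may still stand at 0.186 to 0.220 FPKM (3 fragments, counting error only).

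The 13059 genes that reached 1 FPKM in 3 or more libraries were tested on log2(FPKM + 1) with limma 3.58.1 (R 4.3.3). All 9 libraries entered as 3 group means with a trended spread, two-sided, with Benjamini-Hochberg adjustment and calls at 0.05. The pseudocount understates changes of low genes. P9 against FFSS tests whether the models differ. All 9 members were named, with called genes from 64 pathway genes, uncalled signal carriers, E proteins and Id4, and 3 genes of like pattern for the member with the largest called change. A listed pathway gene that counts include is not reported here. Members and lists were chosen with earlier results of these data known. Alternatives were another pseudocount, other filters, library totals, 2 groups only, a minimum fold, voom on fragments, the replicate number as a block, and each library left out. Tables used Python 3.11.15, NumPy 2.4.6 and pandas 2.3.3, figures matplotlib 3.10.9. The fit was tested on simulated data.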

Additional observations from a re-analysis of the deposited data

Results flagged for a closer look

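For 3 of the 9 genes the effect of passage 9 and the effect of shear, each against P3, differed by limma's test of P9 against FFSS, a share of 33.3% that is near the 31.4% of all tested genes called there. The effect of passage 9 minus the effect of shear was -1.65 on the log2 scale for Bmp4 (adjusted p = 0.00558), which stood below P3 in P9 and above it in FFSS. It was -0.69 for Id2 (adjusted p = 0.0271), which was above P3 in both, and 1.20 for Id3 (adjusted p = 0.000910), which was above P3 in P9 alone. All 3 libraries of each group lay on 1 side of the other group for these genes. They were picked by a call on these same libraries, and the share over all tested genes is not given for this comparison. The separation therefore adds no support.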

How the results depend on the processing

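Each of the 27 values of the 9 genes was recomputed under every setting but the minimum fold, which was applied to calls alone. With a library left out, 218 values kept their direction and side of the threshold, 9 newly passed it, 8 lost it and 8 changed sign. Under the other settings 182 kept both, 2 newly passed, 1 lost its call and 1 changed sign. The sign changes were all in uncalled values: for FFSS against P3, Bmp2 was 0.16 without FFSS replicate 1 and 0.09 without P3 replicate 2 (range over left-out libraries -0.23 to 0.16), Bmp6 -0.28 without FFSS replicate 1 (range -0.28 to 1.47), Id3 -0.12 without P3 replicate 3 (range -0.12 to 0.21), and Nog -0.46 without FFSS replicate 1, -0.16 without P3 replicate 3, -0.00182 without FFSS replicate 3 (range -0.46 to 0.48) and -0.00182 with a pseudocount of 0.1. For P9 against FFSS, Smad6 was 0.20 without P9 replicate 1 (range -0.48 to 0.20). The cause was not tested.

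With only the 2 groups compared in the fit, P9 against P3 called 2 members higher and 2 lower and 10 pathway genes each way, FFSS against P3 called 4 pathway genes higher, and P9 against FFSS called 1 member and 9 pathway genes lower. Of all tested genes, 19.05%, 15.6% and 19.07% were then called in the same order. With a log2 change of at least 1 required (4.95%, 7.98% and 13.2% of all tested genes called), which by construction ended both Grem1 calls and that of Id2 in P9 against FFSS, no member was lower in either model against P3 (0 and 0), FFSS against P3 called 4 pathway genes higher and 4 lower, and P9 against FFSS called 1 member and 7 pathway genes lower. A pseudocount of 0.1 called 3 pathway genes higher in P9 against P3 (9.47% of all), and no filter called 4 higher and 5 lower in FFSS against P3 (10.8% of all). With a library left out, 4.59 to 17.3%, 9.12 to 39.0% and 20.1 to 45.7% of all tested genes were called, and members higher ranged from 1 to 2, 1 to 3 and 1 to 1 over P9 against P3, FFSS against P3 and P9 against FFSS, and members lower from 1 to 3, 0 to 1 and 1 to 4. Pathway genes higher ranged from 3 to 9, 2 to 10 and 10 to 13, and lower from 2 to 9, 5 to 12 and 7 to 17. A filter of at least 5 FPKM left Bmp2 untested.

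Same-numbered libraries did not deviate together (r = -0.0409 to 0.0331 over 9 pairs, against -0.0653 to 0.0608 over 18 others). The numbers thus gave no sign of pairing across all tested genes. A shared origin that affects few genes could go unseen in these correlations, so pairing is not excluded. With the replicate number as a block, 982, 2265 and 3629 genes were called in the 3 comparisons, against 1284, 2845 and 4100 without it. The block changed no call of the 9 genes. Library totals shifted the median of all genes by at most 0.046. FFSS replicate 1 enters the shared spread of every comparison, and each group has 3 libraries.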
